A study of Mus musculus with 7 samples.

Results

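Immunoglobulin gene segments were described in 7 liver RNA-seq libraries of C57BL/6 mice. They were chosen by name and by signal, as rows whose symbol starts with Igh, Igk or Igl followed by the letter of a segment or constant region (v, d, j, c, g, m, a or e) and whose FPKM (sequenced fragments scaled by gene length and library size) was above 0 in at least 1 library. Of 37468 rows in each table, 259 carried such a symbol, 66 of these were at 0 in every library, and 193 were members. The member just inside that limit was Igkv3-3, whose highest FPKM was 0.155, in 1 library. The letters also caught Ighmbp2, a DNA and RNA helicase gene on chromosome 19 that is no immunoglobulin gene, so 192 members were segments. Because the signal itself chose the members, how many were above 0 is a description and was not tested.

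The libraries formed 4 groups. Myod1_active (1 library) and Myod1_control (2 libraries) are the activated and control arms of a Myod1 experiment in SunTag-dCas9 mice, SunTag (2 libraries) are SunTag-dCas9 mice, and WT (2 libraries) are wild-type mice. Thus all but the WT libraries share the SunTag-dCas9 knock-in. The sources used here do not give the promoter that drives it, the way Myod1 was activated, the treatment of the controls, or the age and sex of the mice. In the SunTag system, a chain of peptide tags on dCas9 (a Cas9 that binds but does not cut DNA) recruits effectors through a single-chain antibody fragment, which is a heavy V and a light V domain on 1 polypeptide. The sources used here do not say whether these mice carry that fragment. Alb, the main hepatocyte secretory product, lay between 28499.7 and 54092.5 FPKM in all 7 libraries. Total read counts were unknown.

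An antibody joins heavy chains with kappa or lambda light chains. In developing B cells, 1 V, 1 D (heavy chain only) and 1 J segment are joined by DNA recombination, and splicing links the joined exon to a constant (C) gene. The C gene names the class: Ighm for IgM, the Ighg genes for the IgG subclasses, Igkc for kappa and the Iglc genes for lambda. Plasma cells secrete antibody, and in the adult their RNA and that of B cells is the usual source of these transcripts in liver, which does not make antibody in its hepatocytes. A rearranged transcript carries bases that no single germline segment row contains, and D and J segments are very short.

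The heavy chain locus lies on chromosome 12, the kappa locus on chromosome 6 and the lambda locus on chromosome 16. Among the heavy chain rows, 94 of 113 V, 0 of 20 D, 2 of 4 J and 5 of 7 C rows were above 0 in at least 1 library; the other 2 C rows were both named Ighe, the IgE gene. Among the kappa rows, 85 of 103 V rows and the C gene were above 0, and 0 of 5 J rows. All 3 lambda V rows and both lambda C rows were above 0. No row carried the symbol Igha or Ighd, so IgA and IgD were not analysed here. The row called Ighg has the gene ID that the GENCODE M21 annotation gives to Ighg2b. GENCODE M21 matched all 192 segments by symbol or gene ID, 73 of them with the same gene ID, and lists 7 of them as pseudogenes.

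The sequences below were read from GENCODE M21 transcripts (GRCm38 build) and show the lengths and the likeness of the segments behind the values. The first is bases 1 to 200 of the coding part of Igkc, the member with the highest mean among rows over 300 bp, shown because it carried the largest log2 difference between Myod1_control and SunTag among those rows. No base is marked in it.
Igkc: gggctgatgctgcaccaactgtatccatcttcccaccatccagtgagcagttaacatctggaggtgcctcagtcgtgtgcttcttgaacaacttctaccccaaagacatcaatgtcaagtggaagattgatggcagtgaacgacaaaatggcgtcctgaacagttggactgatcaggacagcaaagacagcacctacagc
Next come a D segment and both J segments that had a value. Capitals in the J segments mark the bases that differ between them or stand unpaired when they are aligned (17 mismatches over 53 aligned bases, 67.9% identity). The D segment was chosen by name as an example and has no capitals.
Ighd1-1: tttattactacggtagtagctac
Ighj1: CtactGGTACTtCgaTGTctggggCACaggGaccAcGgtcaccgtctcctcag
Ighj4: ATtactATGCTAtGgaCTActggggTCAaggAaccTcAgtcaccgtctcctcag
The 2 most abundant kappa V segments, Igkv1-117 and Igkv1-110, differ by 10 mismatches over 359 coding bases (97.2% identity). Bases 147 to 346 of each are shown, with 8 of these mismatches in capitals, because both led the kappa V rows and a short read could match either.
Igkv1-117: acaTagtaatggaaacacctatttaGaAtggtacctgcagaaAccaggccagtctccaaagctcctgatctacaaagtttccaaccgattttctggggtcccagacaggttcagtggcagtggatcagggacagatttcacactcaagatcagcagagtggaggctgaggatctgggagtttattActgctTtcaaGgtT
Igkv1-110: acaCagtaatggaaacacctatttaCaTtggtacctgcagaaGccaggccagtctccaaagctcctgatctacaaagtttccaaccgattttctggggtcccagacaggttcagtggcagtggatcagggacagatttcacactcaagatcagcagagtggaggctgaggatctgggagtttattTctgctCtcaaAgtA
The lambda V segments Iglv1 and Iglv2 differ by 11 mismatches over 351 coding bases (96.9% identity), of which 6 lie in bases 1 to 200, shown with those in capitals.
Iglv1: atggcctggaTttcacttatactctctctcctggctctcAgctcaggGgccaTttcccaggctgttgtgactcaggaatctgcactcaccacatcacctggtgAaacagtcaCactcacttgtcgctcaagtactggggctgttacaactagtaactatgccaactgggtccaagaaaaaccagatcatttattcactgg
Iglv2: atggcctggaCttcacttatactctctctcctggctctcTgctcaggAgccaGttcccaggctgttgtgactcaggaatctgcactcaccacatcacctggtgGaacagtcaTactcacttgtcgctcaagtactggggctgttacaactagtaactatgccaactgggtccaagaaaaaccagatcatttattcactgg
The lambda C genes Iglc2 and Iglc3 differed by 11 mismatches over 314 aligned coding bases (96.5% identity). The counting settings for reads that match such near-identical copies are unknown, so values of single V segments, single lambda genes and single IgG genes are uncertain in that respect.

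Kappa constant RNA was low in the livers of the Myod1 experiment and high in the SunTag and WT livers. Igkc (ENSMUSG00000076609, chromosome 6, 70676429 to 70676751 on mm9, 323 bp) had an FPKM of 3.05 in Myod1_active, 2.85 and 2.19 in Myod1_control, 150.3 and 51.4 in SunTag, and 91.7 and 64.1 in WT. The 3 libraries of the Myod1 experiment lay below the other 4 with no overlap, and the SunTag and WT groups overlapped. Its deposited values lay above their own upper bounds in all 7 libraries, so the level is uncertain. The middle of the bounds was 1.496 in Myod1_active, 1.56 and 1.22 in Myod1_control, 60.1 and 21.4 in SunTag, and 36.8 and 26.0 in WT, which keeps the same order of the experiments. In bulk liver, fewer antibody-producing cells and less RNA per cell cannot be told apart.

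The lambda constant genes were also lower in the Myod1 experiment than in any SunTag or WT library. Iglc2 (chromosome 16, 19198494 to 19200444) had an FPKM of 0.233 in Myod1_active, 0 in both Myod1_control libraries, 4.01 and 1.97 in SunTag, and 2.195 and 0.723 in WT. Iglc3 (chromosome 16, 19065327 to 19067266) was listed at 0 in Myod1_active and in both Myod1_control libraries, and had 1.94 and 1.31 in SunTag and 2.202 and 0.420 in WT. On the FPKM scale, which is per length, kappa exceeded lambda in every library with a lambda value: Igkc was 13.1 times the summed lambda C genes in Myod1_active, 25.3 and 15.7 times in SunTag, and 20.8 and 56.0 times in WT.

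The mu constant gene had another order of libraries. Ighm (ENSMUSG00000076617, chromosome 12, 114659078 to 114660941, 1864 bp) encodes the constant part of IgM and had an FPKM of 18.0 in Myod1_active, 4.57 and 2.28 in Myod1_control, 7.97 and 3.22 in SunTag, and 7.29 and 3.36 in WT. The Myod1_active library was the highest of the 7, and the Myod1_control, SunTag and WT libraries overlapped. The ratio of the FPKM of Ighm to that of Igkc was 5.91 in Myod1_active, 1.60 and 1.04 in Myod1_control, 0.0530 and 0.0625 in SunTag, and 0.0795 and 0.0524 in WT. All ratios of the Myod1 experiment were above 1 and the other 4 were below 0.1. With the middle of the bounds in place of the deposited values, the ratio was 10.8 in Myod1_active, 2.71 and 1.78 in Myod1_control, 0.118 and 0.146 in SunTag, and 0.176 and 0.1196 in WT, so the same libraries lay above and below 1. A 2-sided exact permutation test of the log2 ratio in Myod1_control against SunTag gave p = 0.33 (n = 2 each), the smallest that 2 libraries against 2 allow.

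The IgG constant genes were low in the Myod1 experiment, as Igkc was. Ighg (Ighg2b in GENCODE M21, chromosome 12, 114544600 to 114546144) had an FPKM of 0.845 in Myod1_active, 0.940 and 0 in Myod1_control, 3.44 and 2.11 in SunTag, and 3.07 and 2.24 in WT. Ighg2c (chromosome 12, 114523536 to 114527141), the IgG2 subclass gene of C57BL/6 mice, was listed at 0 in Myod1_active, and had 0.0269 and 0.0268 in Myod1_control, 1.78 and 0.900 in SunTag, and 1.86 and 1.106 in WT. The 3 libraries of the Myod1 experiment lay below the other 4 for both genes. Ighg1 (chromosome 12, 114567187 to 114568734) was listed at 0 in those 3 libraries and had 0.923 and 0.464 in SunTag and 0.304 and 1.34 in WT. Ighg3 (chromosome 12, 114597876 to 114599443) was listed at 0 in Myod1_active and had 0.137 and 0 in Myod1_control, 0.311 and 0.209 in SunTag, and 0.760 and 0.236 in WT. Ighm was 0.872 to 1.24 times the sum of the 4 IgG genes in SunTag and 0.682 to 1.22 times in WT. The ratio of Ighm to the IgG sum was 21.3 in Myod1_active and 4.13 and 85.0 in Myod1_control, so the Myod1_active library lay between its controls. The IgG sum behind the value of 85.0 was 0.0268.

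**Figure D1:**
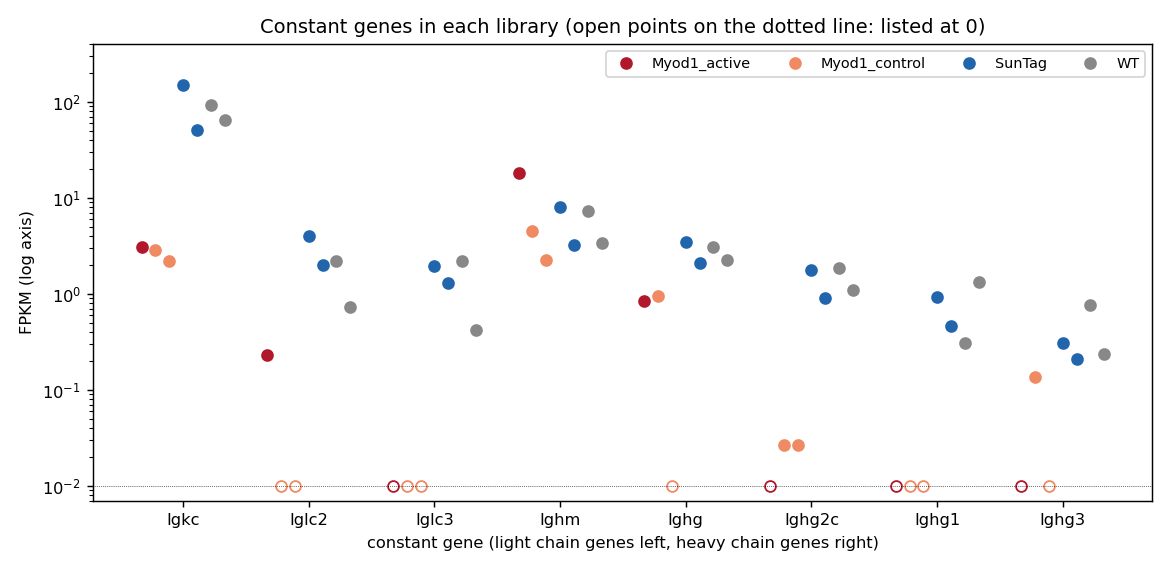
FPKM of the 8 constant genes with a value, on a log axis, with 1 point per library, coloured by group. Igkc lies between 2.19 and 3.05 in the Myod1_active and Myod1_control libraries and between 51.4 and 150.3 in the SunTag and WT libraries, while Ighm is highest in the Myod1_active library at 18.0.

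V segments encode most of the antigen-binding part of an antibody, and each B cell uses 1 heavy and 1 light V segment. Of the 219 V rows, 10 were above 0 in Myod1_active, 9 and 11 in Myod1_control, 140 and 100 in SunTag, and 127 and 106 in WT. The summed FPKM of V rows was 3.52 in Myod1_active, 7.58 and 12.7 in Myod1_control, 121 and 55.2 in SunTag, and 74.8 and 78.7 in WT. The group means were 10.1 ± 3.59 in Myod1_control, 88.1 ± 46.5 in SunTag and 76.7 ± 2.73 in WT (SD, n = 2 each), so SunTag and WT differed by less than the spread of SunTag. The kappa V sum was 0.271 times the heavy V sum in Myod1_active, 2.99 and 0.337 times in Myod1_control, 1.19 and 1.19 times in SunTag, and 1.25 and 0.683 times in WT. In WT replicate 2 the pseudogene row Ighv1-2, with a least number of 1 fragment, supplied 18.3 of the heavy V sum of 44.6. Over V rows of at least 300 bp, which leave it out, the ratio was 0.231 in Myod1_active, 2.26 and 0.373 in Myod1_control, 1.36 and 1.47 in SunTag, and 1.46 and 1.18 in WT. The V sum over these rows averaged 77.1 ± 40.2 in SunTag and 60.98 ± 7.58 in WT (SD, n = 2 each).

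The low values were whole multiples of a fixed step, which is what 1 fragment is worth in that row and library. For all 182 V members 1 set of whole numbers fitted the values of all libraries (within 2%, and at most 0.2 fragments), 148 of them with a value in at least 2 libraries. The smallest such numbers summed over V rows to 17 fragments in Myod1_active, 34 and 62 in Myod1_control, 648 and 279 in SunTag, and 396 and 317 in WT. These are least numbers, since a common factor cannot be seen within a row. A row above 0 in 1 library only, as 34 V rows were, gets the number 1 whatever its FPKM. Such a number can be too low. In SunTag replicate 1, Ighv5-4 (460 bp) had an FPKM of 1.77 and counts as 1, while Ighv5-9 (460 bp) had 0.967 and counts as 6. The step itself, which falls as a library gets deeper, was 0.902 in Myod1_active, 1.04 and 1.04 in Myod1_control, 0.941 and 1.05 in SunTag and 1.02 in WT replicate 2, all relative to WT replicate 1. The steps were searched for only near that of WT replicate 1, so their narrow range was set in part by the search. They therefore do not show that the libraries had a like depth. Of the V rows above 0, those with a least number of 1 fragment were 7 of 10 in Myod1_active, 3 of 9 and 4 of 11 in Myod1_control, 46 of 140 and 50 of 100 in SunTag, and 59 of 127 and 46 of 106 in WT. A single V row at that level cannot be compared between libraries at this depth.

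**Figure D2:**
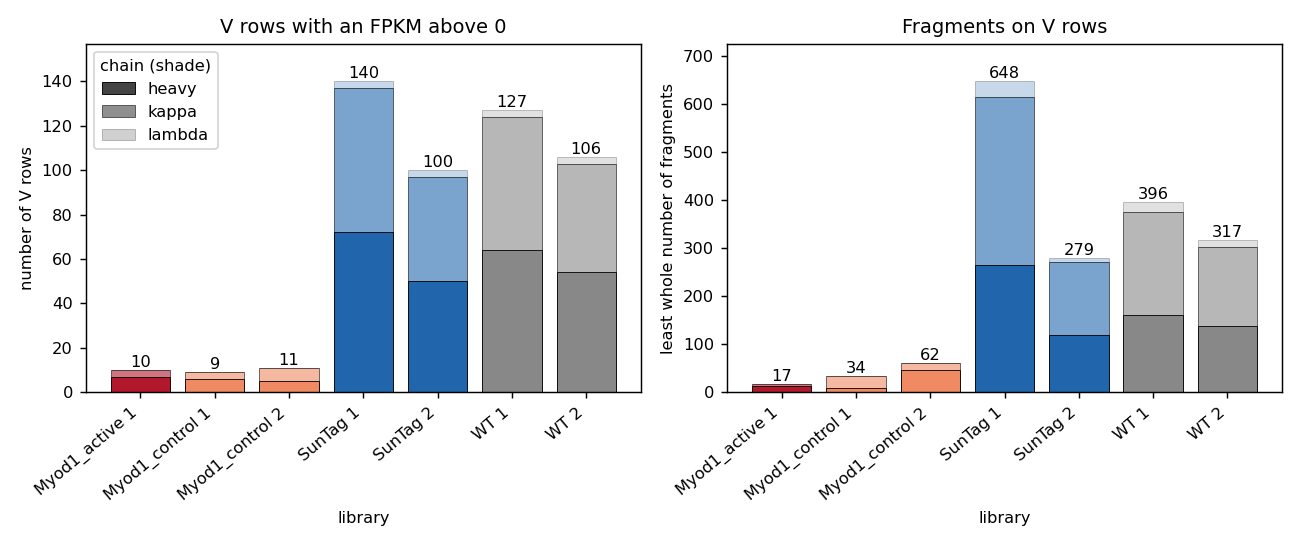
V rows above 0 (left) and least whole numbers of fragments on V rows (right) in each library, with heavy, kappa and lambda chains stacked in shades of the group's colour. The 3 libraries of the Myod1 experiment hold 9 to 11 rows and 17 to 62 fragments, and the SunTag and WT libraries 100 to 140 rows and 279 to 648 fragments.

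The few V fragments of the Myod1 experiment sat on few rows, and on other rows in each library. By least numbers of fragments, Ighv1-55 held 6 of 17 in Myod1_active. In Myod1_control replicate 1, Igkv5-39 held 11 of 34, and in replicate 2, Ighv6-3 held 27 of 62 and Ighv1-76 held 12. Thus the leading V row took 35.3% of fragments in Myod1_active, 32.4% and 43.5% in Myod1_control, 5.56% and 7.53% in SunTag, and 7.07% and 9.15% in WT. A leading share tends to be larger where few fragments are counted, so these shares are descriptions. By FPKM the leading row took 26.7% in Myod1_active, 43.2% and 37.2% in Myod1_control, 4.62% and 6.62% in SunTag, and 6.18% and 23.3% in WT. The row behind the 23.3%, in WT replicate 2, was Ighv1-2. By fragments, the leading row was Igkv1-117 in all 4 SunTag and WT libraries. Only 2 V rows were above 0 in both Myod1_control libraries, and 3 were shared between Myod1_active and at least 1 control. Of the 25 V rows above 0 anywhere in the Myod1 experiment, 2 were at 0 in all SunTag and WT libraries, Ighv2-1 and Igkv4-71 (named after their values were seen).

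The SunTag and WT livers shared a common set of V segments. In all 4 libraries 47 V rows were above 0, and 41 of these were at 0 in the 3 libraries of the Myod1 experiment. Of all 219 V rows, 25 were above 0 in any of those 3 libraries, so being at 0 there was not particular to the shared rows. Igkv1-117 (chromosome 6, 68071085 to 68071821) had an FPKM of 0 in Myod1_active, 0.686 and 0 in Myod1_control, 5.59 and 3.65 in SunTag, and 4.62 and 4.87 in WT. Its near copy Igkv1-110 (chromosome 6, 68220521 to 68221261) had 0 in Myod1_active, 1.71 and 0 in Myod1_control, 4.19 and 2.61 in SunTag, and 4.13 and 3.03 in WT. Among heavy V rows over 300 bp, Ighv1-81 (chromosome 12, 117158490 to 117158923) led with 3.75 and 2.196 in SunTag and 2.43 and 4.77 in WT, and was listed at 0 in the Myod1 experiment. Igkv10-96 was likewise at 0 in those 3 libraries and had 3.69 and 1.503 in SunTag and 1.78 and 1.27 in WT. All 3 lambda V rows were also at 0 in the Myod1 experiment; Iglv1 (chromosome 16, 19085110 to 19085553) had 4.57 and 1.46 in SunTag and 2.43 and 2.12 in WT, and Iglv2 had 2.50 and 0.187 in SunTag and 1.59 and 0.360 in WT. Across the 182 V members, which share library and depth effects, Pearson's r of the log2(FPKM + 1) values lay between 0.387 and 0.599 for the 6 pairs of SunTag and WT libraries. For pairs with a library of the Myod1 experiment it lay between -0.054 and 0.291. Only 9 to 11 of the 182 rows were above 0 in each of those libraries. A low r there thus largely restates the rows listed at 0, and the V profiles were not compared by it.

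V segments from the whole length of the heavy and kappa loci were present. The 113 heavy V rows, ordered by distance from Ighm, were cut into 3 parts of 38, 38 and 37 rows, and the numbers above 0 in all 4 SunTag and WT libraries were 4, 7 and 12 from the nearest to the farthest part. For the 103 kappa V rows, cut into 35, 34 and 34 rows by distance from Igkc, these numbers were 9, 3 and 9. By family, Ighv1, the largest heavy V family, had 49 of 56 rows above 0 in at least 1 library, and Igkv4, the largest kappa family, had 22 of 26. In the 3 libraries of the Myod1 experiment the few V rows above 0 were spread over both loci.

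**Figure D3:**
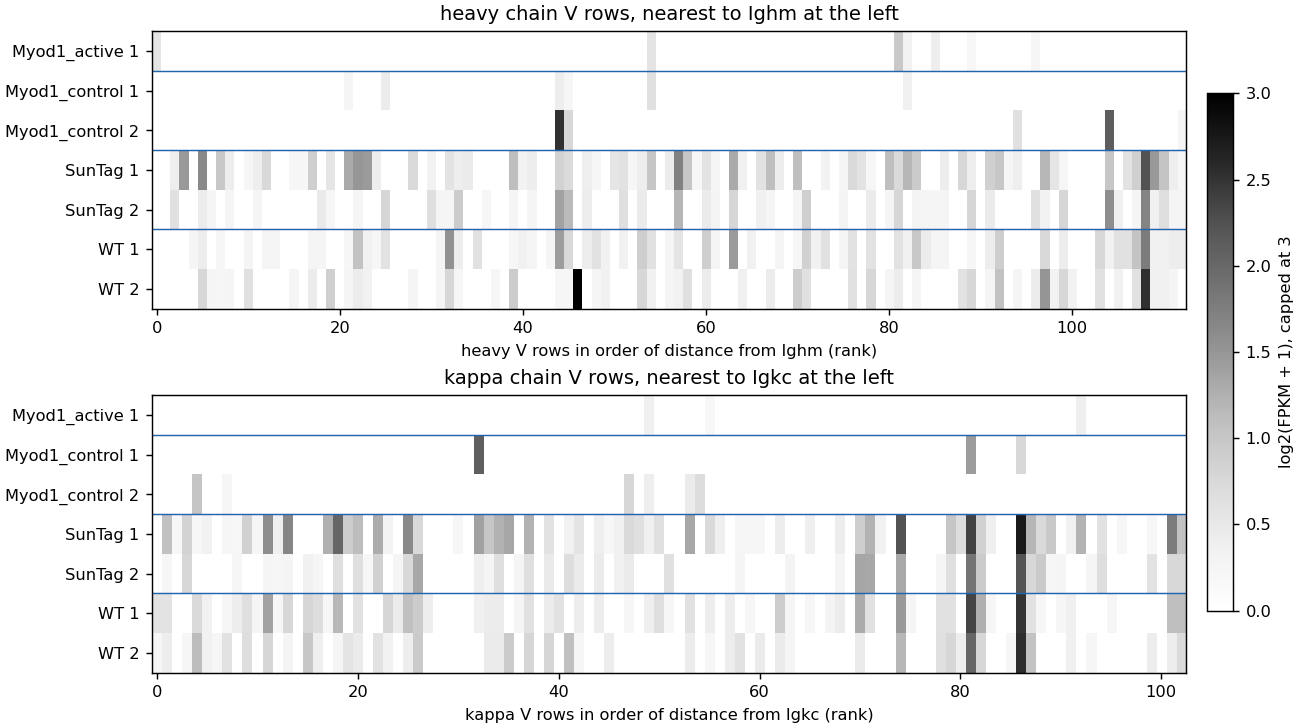
FPKM of each heavy V row (top) and kappa V row (bottom) as log2(FPKM + 1), with 1 column per row in order of distance from the constant gene and 1 line per library. The 3 libraries of the Myod1 experiment are nearly blank, with 9 to 11 V rows above 0 each, and Igkv1-117 is dark in all 4 SunTag and WT libraries.

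Among V and J rows, the largest FPKM belonged to rows with a least number of 1 fragment. Ighj1 (ENSMUSG00000076621, chromosome 12, 114667992 to 114668044, 53 bp) had an FPKM of 144 and 161 in SunTag and was listed at 0 in the other 5 libraries. In both SunTag libraries its least number of fragments was 1, and each value was 34.4 times its own upper bound of 4.18 and 4.68. Ighj4 (chromosome 12, 114666725 to 114666778, 54 bp) had 75.7 in WT replicate 2, from a least number of 1 fragment, and 0 elsewhere. Ighv1-2, a pseudogene in GENCODE M21 that spans 123 bp, likewise had 18.3 in WT replicate 2 from a least number of 1 fragment, and 0 elsewhere. For Ighj4 and Ighv1-2 a value in 1 library only fixes that number at 1. Among all segments, 33 members spanned less than 300 bp. They summed to 1.01 in Myod1_active, 4.11 and 4.25 in Myod1_control, 159 and 168 in SunTag, and 8.47 and 98.7 in WT, most of it in SunTag from Ighj1. Sums without the J rows are used from here on.

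Without J rows, the segments summed to an FPKM of 25.7 in Myod1_active, 16.1 and 17.2 in Myod1_control, 292 and 117 in SunTag, and 184 and 152 in WT. Igkc made up 11.9% of that sum in Myod1_active, 17.7% and 12.8% in Myod1_control, 51.5% and 44.0% in SunTag, and 49.8% and 42.1% in WT. Ighm made up 70.2% in Myod1_active, 28.4% and 13.3% in Myod1_control, 2.73% and 2.75% in SunTag, and 3.96% and 2.21% in WT. In the Myod1 experiment Igkc took a lower share and Ighm a higher share of the sum than in any SunTag or WT library. Between the J cluster and Ighm, 3 predicted rows of 70 to 78 bp, which are no members, summed to 909 in Myod1_active, 0 and 162 in Myod1_control, 299 and 140 in SunTag, and 547 and 192 in WT.

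The question put to SunTag and WT livers was what the knock-in itself changed. Of the antibody genes, 1 segment passed the threshold. The test was limma on log2(FPKM + 1) over 15744 genes with an FPKM of at least 1 in any library, with Benjamini-Hochberg adjustment and a threshold of 0.05. Of the 192 segments 63 reached that level, 54 of them V rows, 2 J rows and 7 C genes. The labels do not say that each library is a different animal, and the p-values therefore reflect only how far these libraries vary, which may be technical. Ighj1 was called higher in SunTag (log2 difference 7.26, SE 0.125, limma adjusted p = 0.000531), and 0 segments were called lower, against 0.0508% of all genes called higher and 0.0762% called lower. At an unadjusted p under 0.05 there were 5 of 63 segments, all higher in SunTag, against 0.883% of all genes higher and 1.07% lower. The Ighj1 call rests on the least number of 1 fragment per library given above, and with genes spanning less than 300 bp left out 0 segments were called. The count was 2 without SunTag replicate 2, 3 without WT replicate 1 and 5 with no filter on low values.

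The abundant antibody genes gave small differences with wide intervals between SunTag and WT. Igkc averaged 100.9 ± 69.9 FPKM in SunTag and 77.9 ± 19.5 in WT (SD, n = 2 each), with a log2 difference of 0.20 (95% interval -1.17 to 1.57, limma adjusted p = 1). Ighm averaged 5.59 ± 3.36 in SunTag and 5.32 ± 2.78 in WT, with a log2 difference of 0.03 (-1.33 to 1.40). Iglc2 had a log2 difference of 0.72 (-0.30 to 1.73). The intervals are wide, so the test does not show that the levels were alike. Without SunTag replicate 1 the difference of Igkc was -0.57 and that of Ighm -0.51, and without WT replicate 2 they were -0.06 and -0.43. SunTag replicate 1 held the highest value of 76 of the 182 V members.

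Most segments overlapped between SunTag and WT, as most genes did. Of the 63 tested segments 11 were higher in both SunTag libraries than in both WT libraries, and 3 were lower, against 13% and 12.8% of all genes. The median log2 difference was 0.20 for the segments and 0.01 for all genes. At the level of V rows, 7 of 219 were above 0 in both SunTag and in neither WT library, and 4 the other way round. The share of all genes with such a pattern was not computed, so both counts are descriptions. These rows lay near the floor. Their least numbers of fragments were 1 to 6 per SunTag library for the 7, and 1 to 4 per WT library for the 4. The 7 rows were Ighv2-2, Ighv9-1, Ighv1-33, Ighv5-9-1, Igkv17-127, Igkv1-122 and Igkv4-58 (named after their values were seen), with FPKM between 0.174 and 0.931 in SunTag. Whether reads of a single-chain antibody transgene were assigned to any segment was not tested.

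Myod1_active livers were set against Myod1_control to ask what activation of Myod1 changed. By limma 0 segments were called higher and 0 lower, against 0.216% of all genes called higher and 0.0381% called lower, and 1 of 63 had an unadjusted p under 0.05, against 17.2% of all genes higher and 2.31% lower. That gene was Ighm, at 18.0 FPKM in Myod1_active and 3.42 ± 1.62 in Myod1_control (SD, n = 2). Its log2 difference was 2.15 (SE 0.646, limma adjusted p = 0.203). The Myod1_active group is 1 library, so the fit assumes that it varies like the other groups. Igkc differed by 0.21 (95% interval -1.47 to 1.89, limma adjusted p = 0.889), and the sign of that small difference turned under 3 other settings. Groups did not overlap for 4 segments that were higher and 3 that were lower in Myod1_active, against 61.4% and 16.6% of all genes. The median gene was 0.25 higher in Myod1_active, and the median segment was at 0 difference, since most tested segments were listed at 0 in all 3 libraries. The V sum was 3.52 in Myod1_active, below both controls, while the sum of the C genes was 22.1, against 8.52 and 4.49 in the controls, most of it from Ighm.

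Myod1_control and SunTag are both SunTag-dCas9 livers from 2 sets of samples, so what the controls received and any other difference between the sets cannot be told apart. Of the 63 tested segments 18 were called lower in Myod1_control and 0 higher, against 17% of all genes called lower and 7.3% called higher. The 18 were 14 V rows (3 heavy, 10 kappa and 1 lambda), Ighj1, and the C genes Igkc, Iglc2 and Ighg2c. Of the 18, only Igkc had an FPKM of at least 1 in a Myod1_control library. The other 17 entered the test through their level in SunTag or WT and were bound to lie higher there, so their count, their median and their calls are descriptions.

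**Figure D4:**
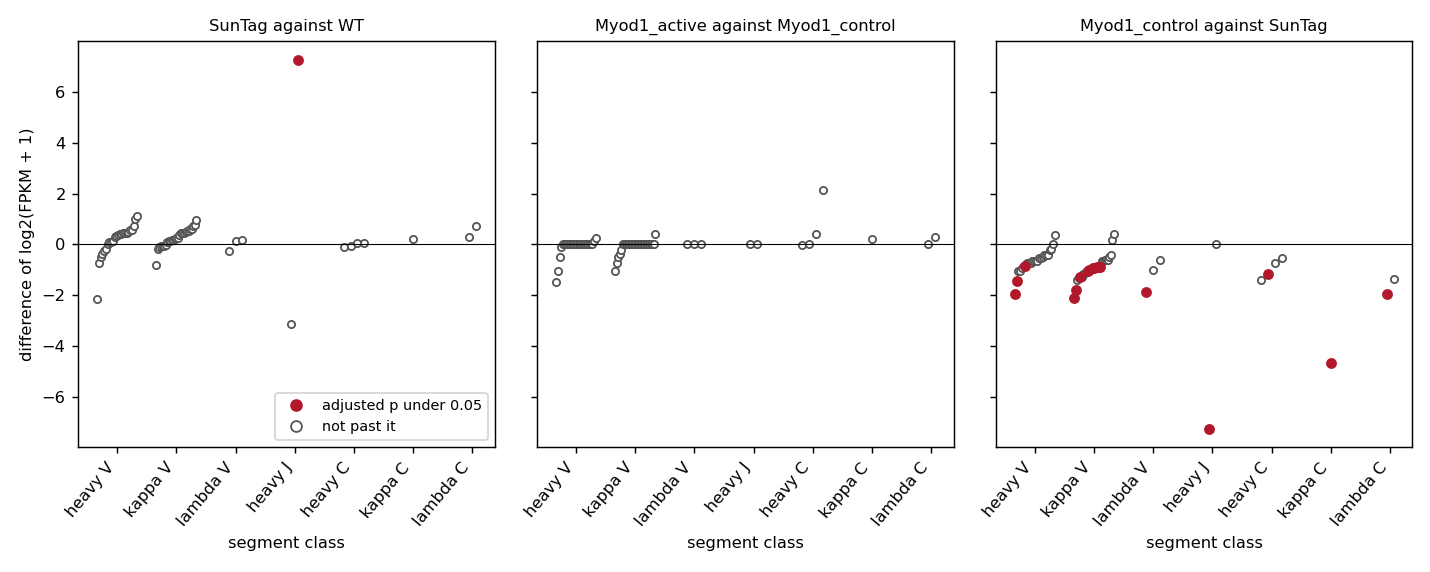
Difference of log2(FPKM + 1) for each of the 63 tested segments in the 3 comparisons, by segment class, with filled points where limma's adjusted p was under 0.05. Filled points are 1 in SunTag against WT (Ighj1), 0 in Myod1_active against Myod1_control and 18 in Myod1_control against SunTag, all 18 below 0.

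Kappa constant RNA was 40.02-fold lower in Myod1_control on average, 20.4-fold without SunTag replicate 1 and 59.6-fold without SunTag replicate 2. The deposited Igkc values were 1.83 and 1.80 times the middle of their bounds in Myod1_control, and 2.50 and 2.41 times in SunTag. With the middles the fold would thus be smaller. Igkc averaged 2.52 ± 0.468 FPKM in Myod1_control and 100.9 ± 69.9 in SunTag (SD, n = 2 each; log2 difference -4.67, SE 0.532, limma adjusted p = 0.0169). Iglc2, a lambda constant gene, had a log2 difference of -1.95, and Iglv1, the leading lambda V segment, -1.89. Igkv1-117 had -2.09, Ighv1-81 -1.96 and Ighg2c -1.16. The other V rows called lower were Ighv1-18, Ighv1-83, Igkv10-94, Igkv10-96, Igkv12-46, Igkv14-111, Igkv2-137, Igkv5-43, Igkv6-25, Igkv6-32 and Igkv9-120. Just outside the threshold stood Ighg at -1.42 (adjusted p = 0.0544) and Iglc3 at -1.38 (adjusted p = 0.0680). Ighm had a log2 difference of -0.53 (95% interval -1.89 to 0.84, adjusted p = 0.485), and without SunTag replicate 1 it was 0.02.

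The number of calls depended on single libraries. Every one of the 18 differences kept its sign, which was bound to hold for the rows listed at 0 in both Myod1_control libraries. Leaving out Myod1_control replicate 1, Myod1_control replicate 2, WT replicate 1 or WT replicate 2 left 1 call each time, Ighj1. Without SunTag replicate 1 there were 8 calls and without SunTag replicate 2 there were 33. Groups did not overlap for 45 of the 63 tested segments, all lower in Myod1_control, against 41.6% of all genes lower and 24.9% higher. The median log2 difference was -0.87 for the segments and -0.14 for all genes. Only 7 of the 63 tested segments had an FPKM of at least 1 in a Myod1_control library. Most of the 63 thus entered the test through their level in SunTag or WT, so the count of 45 and the segment median are descriptions.

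Igj and most listed B cell genes were lower in the Myod1 experiment than in SunTag and WT. Igj, the J chain that links IgM and IgA, had an FPKM of 0.317 in Myod1_active, 0.0684 and 0.341 in Myod1_control, 6.68 and 1.90 in SunTag, and 3.20 and 1.73 in WT (limma adjusted p = 0.0506 in Myod1_control against SunTag). Cd79a, a signalling part of the B cell receptor, had 0 in Myod1_active, 0.0865 and 0.0647 in Myod1_control, 3.41 and 2.26 in SunTag, and 2.997 and 1.44 in WT. Ms4a1, the B cell surface protein CD20, was at 0 in all 3 libraries of the Myod1 experiment and at 0.229 to 0.498 in the other 4. The summed FPKM of 20 B cell markers was 11.4 in Myod1_active, 5.98 and 7.93 in Myod1_control, 28.9 and 24.0 in SunTag, and 27.4 and 19.4 in WT, and 18 of the 20 were lower in all 3 libraries of the Myod1 experiment than in the other 4, against 22.8% of all rows that reached an FPKM of 1. The exceptions were Blnk and Ly6d. In Myod1_control against SunTag, 7 of 8 tested B cell markers were called lower and 0 higher, against the 17% and 7.3% of all genes given above. The listed genes passed the same filter on low values as the segments, with the same limit.

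Most listed genes of T and NK cells, Kupffer cells and red cells were lower as well: 14 of 18, 10 of 12 and 7 of 8 were lower in all 3 libraries of the Myod1 experiment than in the other 4. Of all rows that reached an FPKM of 1, a level some listed genes did not reach, 22.8% were. Other listed genes were not lower. Cd4, the helper T cell co-receptor, had 7.38 in Myod1_active, 2.90 and 0.201 in Myod1_control, 0.389 and 0.379 in SunTag, and 0.296 and 0.313 in WT, and the macrophage genes Lyz2 and Cd68 overlapped. The 18 T and NK cell markers summed to 12.5 in Myod1_active, 8.75 and 5.02 in Myod1_control, 51.6 and 27.9 in SunTag, and 30.2 and 32.7 in WT, and 8 of 10 tested were called lower in Myod1_control than in SunTag. The 12 markers of Kupffer cells, the resident liver macrophages, summed to 166 in Myod1_active, 76.8 and 132 in Myod1_control, 653 and 398 in SunTag, and 373 and 458 in WT, and 9 of 12 tested were called lower. Hba-a1, an alpha globin of red cells, had 0.692 in Myod1_active, 0.792 and 1.25 in Myod1_control, 1927 and 1233 in SunTag, and 746 and 771 in WT. Of 8 red cell genes 5 were called lower and 1, Alas2, was called higher. Among all genes, 17% were called lower in Myod1_control than in SunTag and 7.3% higher. The part of blood or immune cell content in the immunoglobulin differences was not tested.

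The summed plasma cell markers overlapped between the experiments. The list of 20 plasma cell markers holds many genes of the secretory pathway that other cells use, and 13 of the 20 had an FPKM of at least 1 in any library. The 20 markers summed to 538 in Myod1_active, 506 and 511 in Myod1_control, 606 and 510 in SunTag, and 498 and 457 in WT. Sdc1, at 121.8 to 284.9, and Xbp1, at 80.1 to 150.1, were the highest of them in every library. The sum therefore says little about the low members of the list. In Myod1_control against SunTag, 1 of 13 tested was called lower, Sdc1, a surface proteoglycan, and 1 was called higher, Derl3, an endoplasmic reticulum degradation protein. Of the 20, 6 were lower in all 3 libraries of the Myod1 experiment than in the other 4, a share near the 22.8% of all rows: Igj and Sdc1, the transcription regulators Irf4, Prdm1 and Pou2af1, and the chemokine receptor Cxcr3. Tnfrsf17, the plasma cell survival receptor, was at 0 in those 3 libraries and between 0 and 0.0434 elsewhere. The 10 hepatocyte genes summed to 57734 in Myod1_active, 64357 and 69535 in Myod1_control, 82873 and 79790 in SunTag, and 84341 and 95376 in WT, and were thus also lower in each library of the Myod1 experiment. Of these genes 3 were lower in all 3 libraries, and 1 was called lower in Myod1_control and 1 higher. The calls in both lists stand against 17% of all genes called lower in Myod1_control than in SunTag and 7.3% higher.

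Some receptors that carry or bind antibody were lower in Myod1_control and others were not called. Pigr, which transports IgA and IgM across epithelia, had 265 in Myod1_active, 294.5 and 309 in Myod1_control, 238 and 442 in SunTag, and 379 and 372 in WT. Fcgrt, the receptor that protects IgG from breakdown, had 81.8 in Myod1_active, 100.005 and 84.1 in Myod1_control, 84.1 and 95.2 in SunTag, and 94.0 and 111 in WT. Both of these genes overlapped between Myod1_control and SunTag. Of 10 tested receptor and transport genes 4 were called lower in Myod1_control and 0 higher, against 17% and 7.3% of all genes. The 4 were Fcgr1, Fcgr4 and Fcer1g, which are Fc receptor parts of myeloid cells, and Cd5l, a macrophage product that binds IgM. The Fc receptor genes Fcgr2b (log2 difference -1.0045, limma adjusted p = 0.0882) and Fcgr3 (-0.99, adjusted p = 0.0826) were not called. Rag1, the recombinase that joins segments, was at 0 in all 7 libraries, and Igll1, part of the surrogate light chain of precursor B cells, did not exceed 0.0937. Dntt, which adds bases at the joints of segments, had 0.581 in Myod1_active, 0.146 and 0.218 in Myod1_control, 3.73 and 0.901 in SunTag, and 2.16 and 0.707 in WT. Vpreb1, another part of the surrogate light chain, had 0 in Myod1_active, 0.205 and 0 in Myod1_control, 0.325 and 0.146 in SunTag, and 0.148 and 0.352 in WT. Of the 2 tested genes of recombination and surrogate light chain, 0 were called.

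**Figure D5:**
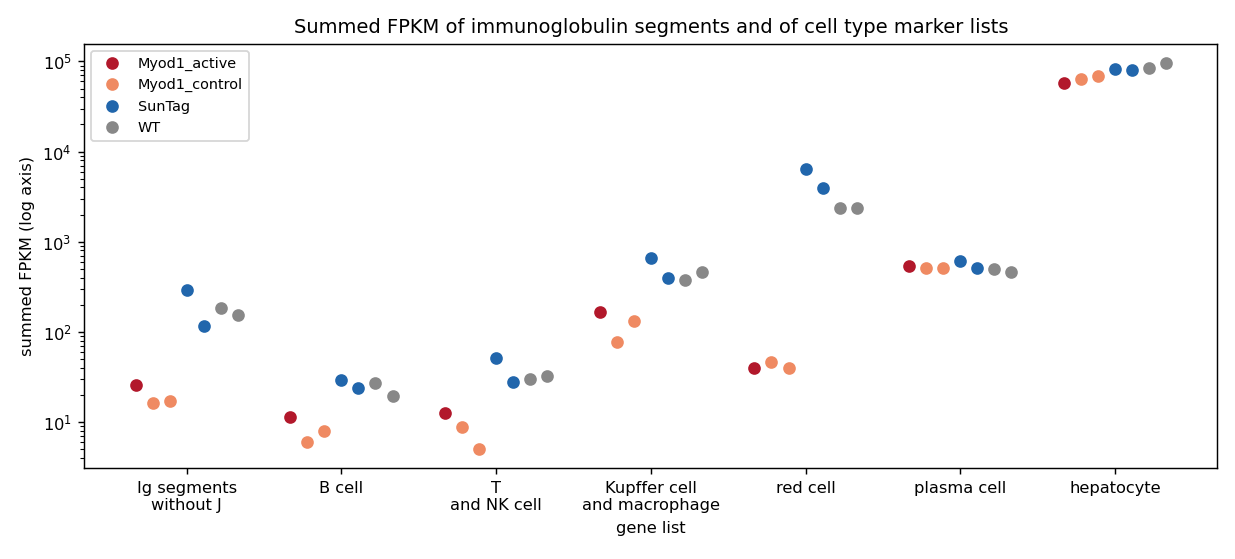
Summed FPKM, on a log axis, of the immunoglobulin segments without J rows and of 6 marker lists, with 1 point per library, coloured by group. The segments, B cell, T and NK cell, Kupffer cell, red cell and hepatocyte sums are lower in each Myod1_active and Myod1_control library than in the other 4, and the plasma cell sums of the experiments overlap.

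Ighmbp2 behaved unlike the segments it was caught with. It had an FPKM of 2.198 in Myod1_active, 1.94 and 2.004 in Myod1_control, 1.26 and 1.43 in SunTag, and 1.21 and 1.72 in WT. The libraries of the Myod1 experiment were the higher ones for this gene, and it was not called in any comparison (limma adjusted p = 0.786 in Myod1_active against Myod1_control, 0.167 in Myod1_control against SunTag and 1 in SunTag against WT).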

How the data were processed

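Liver RNA had been extracted as total RNA and sequenced on Illumina libraries, per the labels. The submitters' processing notes name cutadapt 1.11, TopHat2 2.1.1, Cufflinks 2.2.1 and the mm9 build; the sources used here do not give settings, annotation, strand or read length. The authors deposited FPKM per gene with bounds and a status, per the file headers. Positions are on mm9, counted from 1.

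Symbols with more than 1 row (244) were summed, and 343 rows with a status other than OK in any library were left out before testing, 0 of them members. The test was limma 3.58.1 (R 4.3.3) on log2(FPKM + 1), with 1 mean per group over all 7 libraries, moderated variances with a mean trend (3 residual degrees of freedom and 1.93 from the prior), two-sided, and Benjamini-Hochberg adjustment over 15744 genes. Differences on this scale understate the change of low genes and still contain the median gene's shift. The members and the marker lists were chosen with earlier results of these data known. Genes were named by rule: every C gene and lambda row with a value, the leading V and J rows of each chain, every member past the threshold, Ighmbp2, Igj and leading members of each list; fewer were named than the rule allows. Comparisons of Myod1_control with SunTag and of SunTag with WT share the SunTag libraries. Alternatives were pseudocounts of 0.1 and 0.5, filters, scalings, the replicate block and leaving out single libraries.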

Additional observations from a re-analysis of the deposited data

How the results depend on the processing

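Main counts of called segments were 1 in SunTag against WT, 0 in Myod1_active against Myod1_control and 18 in Myod1_control against SunTag. With no filter on low values they were 5, 2 and 20 (9 of the 18 among them). With genes under 300 bp left out, SunTag against WT gave 0. Myod1_control against SunTag gave 7 with a mean FPKM of at least 1 (13 segments tested), 9 with quantile normalization, 1 with the libraries of the 2 groups only, and 11 with the replicate block. Leaving out 1 library gave 1 to 33 there, 1 to 3 in SunTag against WT and 0 in Myod1_active against Myod1_control. In SunTag against WT and in Myod1_control against SunTag, Ighj1 was called in every setting that tested it.

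The replicate block left SunTag against WT at 1 and Myod1_active against Myod1_control at 0. Equal replicate numbers were not taken as pairs: across 15744 genes, deviations of equal numbers correlated at 0.04 for SunTag and WT and at 0.03 or less for Myod1_control with either.

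In Myod1_active against Myod1_control, the difference of Igkc was -0.0313 with median-ratio scaling, -0.0533 with quantile normalization and -0.178 with the replicate block. With single libraries left out, the difference of Ighm in Myod1_control against SunTag ranged between -1.07 and 0.0188, and in SunTag against WT that of Igkc ranged between -0.57 and 0.96 and that of Ighm between -0.51 and 0.58. The cause of these changes was not tested. The log2 ratio of V sums in Myod1_control against SunTag was -3.06, and -3.73 over members of at least 300 bp; that of C sums was -4.05, and -1.99 without the highest member, Igkc. Depth was unknown, and V rows with a least number of 1 fragment cannot be compared singly.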
